A study of Mus musculus with 2 samples.

Results

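The aminoacyl-tRNA synthetases of mouse liver, with 3 proteins that hold several of them together, were examined for binding of CHOP, the stress-induced transcription factor encoded by Ddit3. The set has 39 of 21866 protein-coding genes and was chosen by gene name: 20 cytosolic synthetase genes, 16 mitochondrial ones, whose symbols end in 2, and the scaffold proteins Aimp1, Aimp2 and Eef1e1. All 39 symbols matched a gene. CHOP was mapped by chromatin immunoprecipitation and sequencing (ChIP-seq) in liver of WT mice treated with Tunicamycin, which blocks N-linked glycosylation and so stresses the endoplasmic reticulum, injected into the abdomen (1 mg/kg) 8 h earlier. A pool of 3 mice gave 1 library of precipitated chromatin, and the control was 1 input library, also from WT liver after Tunicamycin. The single library gives no spread between animals, untreated or CHOP-deficient liver was not analysed here, and every value below therefore describes where peaks lay in this pool. Liver contains several cell types, and the peaks do not tell them apart.

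Aminoacyl-tRNA synthetases join each amino acid to its tRNA, the charged form that the ribosome uses. The cytosol and the mitochondrion translate separately and are served by largely separate sets of enzymes, although the genes for the glycine and lysine enzymes, Gars and Kars, each supply both compartments. Uncharged tRNA and stress in the endoplasmic reticulum both lead to phosphorylation of eIF2α and to translation of ATF4, and many cytosolic synthetase genes are known as ATF4 targets. ATF4 can pair with CHOP or another C/EBP protein on a composite element made of a C/EBP part and an ATF part. The comparison asks at which of the 39 genes CHOP peaks lay, how high they were, and whether that element was at the summit.

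The 14157 peaks were called by the authors. The value of each peak is the authors' fold enrichment, the pileup of reads at the summit over the local background, with 1 added to each. Where the background is below 1 read, the added 1 weighs heavily on the fold. The 95% interval of a fold is an exact Poisson interval on the reads at the summit, which covers counting error only. The median peak rested on 11 reads. A promoter peak is one whose summit lay within 1 kb of a start site of a protein-coding transcript, and a distal peak lay further away, within 50 kb, with the gene as owner of the nearest start site.

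A composite element, TGATGNAA on either strand, lay in the strongest promoter peak of 13 of the 14 cytosolic synthetase genes with a promoter peak. The share over all genes with a promoter peak was 3.85%. The motifs were chosen with earlier results of these data known, so this contrast is not independent evidence. The stretches of 30 bases below are shown because they carry what these peaks had in common. They come from the GRCm38.p6 (mm10) sequence, are read 5′ to 3′ along the strand on which TGATGNAA reads forward, and have the element in capitals. Of the 13 genes 11 are shown, in order of falling fold, with 1 element each (that nearest to the summit).
Gars (chr6:55037960-55037989, minus strand): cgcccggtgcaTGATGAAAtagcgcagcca
Iars (chr13:49682126-49682155, minus strand): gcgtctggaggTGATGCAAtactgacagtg
Sars (chr3:108444190-108444219, minus strand): ctcgggtagtcTGATGCAAtaggtctgcaa
Eprs (chr1:185363259-185363288, minus strand): cacccacgcgcTGATGCAAcccgcgcgggt
Yars (chr4:129189895-129189924, plus strand): acgagctcagcTGATGCAAcccgacgggac
Mars (chr10:127311638-127311667, plus strand): ggagcccacgcTGATGCAAtcggaaccggc
Vars (chr17:35001988-35002017, plus strand): agaatgcaagaTGATGAAAtctcttccttc
Wars (chr12:108893505-108893534, minus strand): aaagggacagcTGATGCAAtgcaatgacaa
Farsb (chr1:78488571-78488600, plus strand): acacgcgctgaTGATGCAAcggagccaccg
Tars (chr15:11399655-11399684, plus strand): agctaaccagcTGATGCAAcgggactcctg
Cars (chr7:143600045-143600074, plus strand): cttccagaatcTGATGCAAccgcggcgccg

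The spelling TGATGCAA was present in 11 of the 13 genes. The other two, Gars and Vars, had TGATGAAA. An element counts as at the summit where all of its bases lie within 50 bp of it. This was so in 10 of the 13, and so in 10 of the 14 cytosolic genes with a promoter peak, beside 1.80% of all genes with one. In those 10 the distance from the centre of the element to the summit ran from 1 bp (Yars) to 29 bp (Wars), with a median of 20.5 bp. In Mars, Farsb and Tars the element was in the peak but its centre was 50, 110 and 243 bp from the summit, so that it did not count as an element at the summit. The orientation was not shared: of the 10, 5 elements read along the gene and 5 against it, and 5 lay before the nearest start site and 5 after it. The flanking bases also differed, and the base after the element was T in 6 genes and C in 4.

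Promoter peaks were present at 22 of the 39 genes (56.4%), beside 27.9% of all protein-coding genes. By group, cytosolic synthetases had them at 14 of 20 genes (70.0%) and scaffold proteins at 2 of 3 (66.7%). Mitochondrial synthetases had them at 6 of 16 (37.5%), nearer to the share of all genes. A fold of 10 or more was reached by 8 cytosolic genes, 3 mitochondrial genes and no scaffold gene, which is 28.2% of the 39 genes beside 6.51% of all protein-coding genes. The median of the highest fold per gene was 13.6 in the cytosolic group, 8.77 in the mitochondrial group and 6.86 over the 6100 protein-coding genes with a promoter peak.

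**Figure D1:**
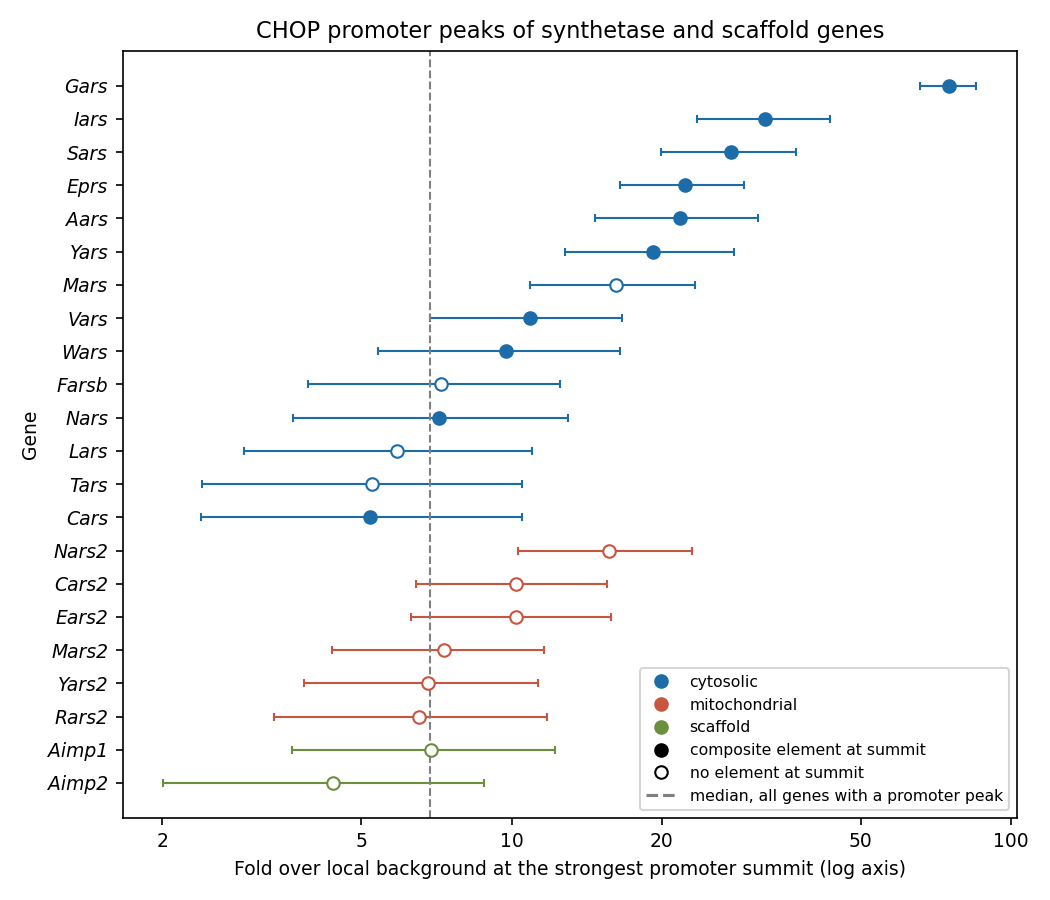
Fold of the strongest promoter peak (x axis, log scale) for the 22 genes with a promoter peak (y axis), coloured by group, with exact Poisson 95% intervals that cover counting error only. Filled points have TGATGNAA within 50 bp of the summit, all of them cytosolic, and Gars at 74.9 lies apart from the other genes, whose folds run from 4.39 to 32.2.

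Gars, which makes the glycine enzyme of both compartments, had by far the highest fold of the set and the most reads at its summit. Its fold was 74.9 (65.6 to 85.1) on 232 reads over a background of 2.11, at chr6:55037568-55038437, and its summit lay 34 bp before the start site. It ranked 12 among the 6100 genes with a promoter peak. The element was 2 bp from the summit, on the strand opposite to the gene. A weaker summit 632 bp inside Gars had a fold of 3.75 (1.64 to 7.91) on 5 reads and no element. The 100 bases before the Gars start site are shown along the gene because they hold the summit of this peak, with the element in capitals as it reads on that strand (chr6:55037907-55038006).
Gars: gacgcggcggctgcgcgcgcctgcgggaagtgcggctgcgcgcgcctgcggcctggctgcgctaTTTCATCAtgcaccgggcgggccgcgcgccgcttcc

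Below Gars, Iars, Sars, Eprs, Aars and Yars had folds between 19.2 and 32.2. Iars, for isoleucine, stood at 32.2 (23.5 to 43.3) on 42 reads, with its summit 14 bp before a start site and inside the 5′ UTR of a longer transcript. Sars, for serine, stood at 27.5 (19.9 to 37.1) on 41 reads. Eprs encodes the fused glutamate and proline enzyme, and stood at 22.2 (16.5 to 29.2) on 49 reads with its summit in an intron 207 bp after the start site. Aars, for alanine, stood at 21.7 (14.7 to 31.1) on 28 reads, and Yars, for tyrosine, at 19.2 (12.8 to 27.9) on 26 reads, in a peak that also counts for S100pbp. The intervals of these genes overlapped one another, so their order is not resolved by the counts, while none reached the interval of Gars.

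Sars owed its promoter peak to the distance chosen. Its summit lay at chr3:108444187, in an intron 956 bp after an internal start site, and its element was 18 bp away. Eprs had another promoter summit, at 954 bp, with a fold of 10.5 (5.94 to 17.4) on 13 reads and an element of its own 3 bp from the summit. On the other side of the limit was Wars2, for mitochondrial tryptophan, whose intronic summit 1006 bp after a start site had a fold of 5.25 (2.40 to 10.5) on 6 reads and was counted as distal.

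Mars, Vars and Wars formed the middle of the cytosolic range. Mars, for methionine, had a fold of 16.2 (10.9 to 23.3) on 27 reads with its summit in a coding exon 183 bp after a start site. Vars, for valine, had its stronger peak 659 bp before an internal start site, at 10.9 (6.88 to 16.6) on 20 reads, and a weaker one 16 bp after its first start site, at 7.04 (4.14 to 11.3) on 15 reads. The stronger peak carried the element and the one at the first start site did not. Wars, for tryptophan, had a fold of 9.75 (5.40 to 16.5) on 12 reads. Its summit lay 293 bp before an internal start site of Wars and 140 bp before a start site of Wdr25, so the peak counts for both genes and position does not assign it.

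The remaining cytosolic peaks were lower and rested on few reads. Farsb, the beta chain of the phenylalanine enzyme, had a fold of 7.23 (3.91 to 12.5) on 11 reads, and Nars, for asparagine, 7.16 (3.66 to 13.0) on 9 reads, with an element 28 bp from the summit. Lars, for leucine, had a fold of 5.89 (2.91 to 11.0) on 8 reads in an intron 796 bp after an internal start site, where all bases around the summit were repeat-masked, and a weaker summit 13 bp from that start site on 5 reads. Tars, for threonine, had 5.25 (2.40 to 10.5) and Cars, for cysteine, 5.22 (2.39 to 10.5), each on 6 reads. All of these intervals contain the median fold of genes with a promoter peak, 6.86. Lars was the 1 cytosolic gene of 14 with no composite element in either of its promoter peaks.

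The cytosolic genes were also divided by a list written for this comparison. This list of 13 cytosolic synthetases commonly described as induced through ATF4 was written from general knowledge: Aars, Cars, Eprs, Gars, Iars, Lars, Mars, Nars, Sars, Tars, Vars, Wars and Yars. Promoter peaks were present at 13 of 13, beside 27.9% of all protein-coding genes, with a median fold of 16.2. Of the 7 remaining cytosolic genes, Farsb alone had a promoter peak. The list holds known ATF4 targets and was written with part of the peak results known, so its count is not independent evidence.

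**Figure D2:**
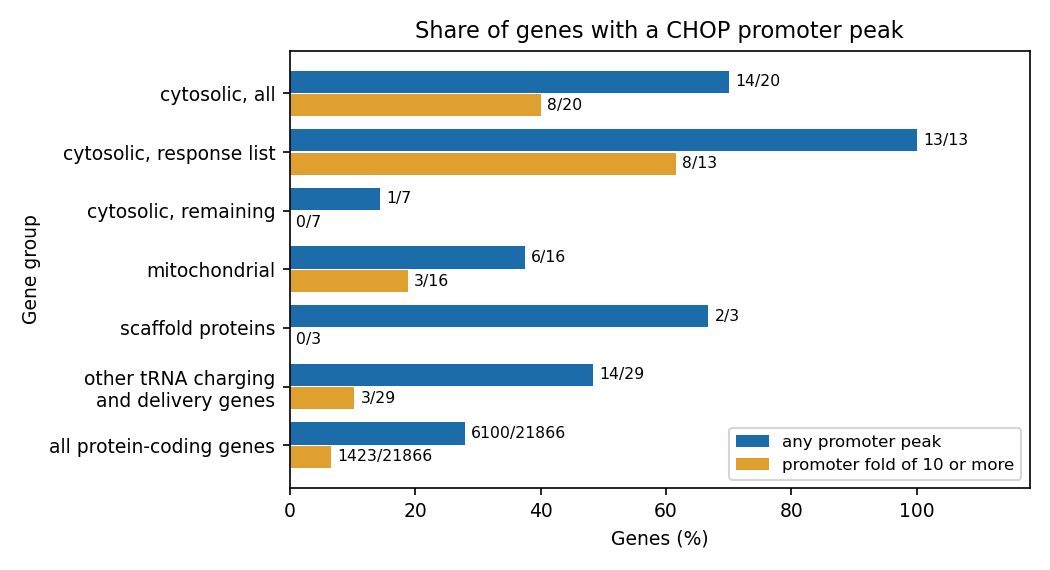
Percent of genes (x axis) in each group (y axis) with any CHOP promoter peak (blue) and with a promoter fold of 10 or more (yellow), with the counts beside the bars. The response list stands at 13 of 13 and the remaining cytosolic genes at 1 of 7, with all protein-coding genes at 27.9%. The list was written with part of the peak results known, so this contrast is not independent evidence.

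The 6 cytosolic genes without a promoter peak were Dars (aspartate), Farsa (the alpha chain of the phenylalanine enzyme), Hars (histidine), Kars (lysine), Qars (glutamine) and Rars (arginine). None had a distal peak either, beside 18% of all protein-coding genes, a share at which none in 6 genes is near the background. The summit nearest to Qars was 3525 bp from its start sites, with a fold of 12.8, but lay 93 bp from the start of Qrich1. The one nearest to Farsa was 10045 bp away and lay 10 bp from the start of Calr, the chaperone calreticulin. For Hars, Rars, Kars and Dars the nearest summits were 25721, 64841, 89507 and 172980 bp away. Farsa and Farsb encode the chains of a single enzyme, and the peak list has a promoter peak at Farsb but not at Farsa.

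Membership of the multisynthetase complex divided the cytosolic genes differently. This complex holds 8 of the listed synthetases (Dars, Eprs, Iars, Kars, Lars, Mars, Qars and Rars) on the 3 scaffold proteins. Promoter peaks were present at 4 of the 8, and at 10 of the 12 cytosolic genes outside the complex, beside 27.9% of all protein-coding genes. The 2 structural classes of synthetase gave 7 of 9 genes of class I and 6 of 10 of class II with a promoter peak, beside the same 27.9%, with Eprs, which holds a domain of each, left out. These subgroups are small, and their differences were not tested.

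Scaffold genes had peaks near or below 6.86, the median fold of genes with a promoter peak, which both intervals contain. Aimp1, whose product also has a cytokine form, had a fold of 6.90 (3.64 to 12.2) on 10 reads, with a summit 77 bp before a start site of Aimp1 and 57 bp after one of Tbck. Aimp2 had 4.39 (2.01 to 8.82) on 6 reads and shared its peak with Pms2, a DNA mismatch repair gene. Eef1e1, also known as AIMP3, had no peak, and the nearest summit was 24017 bp away. No composite element was in the Aimp1 or Aimp2 peak.

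Among mitochondrial synthetases Nars2, for asparagine, had the highest peak. Its fold was 15.7 (10.3 to 23.0) on 24 reads at chr7:96951325-96951927, with the summit 9 bp before the start site. Cars2 (cysteine) had 10.2 (6.43 to 15.5) on 20 reads in a coding exon 188 bp inside the gene, and Ears2 (glutamate) 10.2 (6.28 to 15.8) on 18 reads. Mars2 (methionine) had 7.33 (4.37 to 11.6), Yars2 (tyrosine) 6.81 (3.85 to 11.3) and Rars2 (arginine) 6.54 (3.35 to 11.8), on 16, 13 and 9 reads. All of these intervals except that of Nars2 contain the median of genes with a promoter peak, 6.86. Ears2 and Rars2 shared their peaks with the neighbouring genes Ubfd1 and Orc3, whose start sites were 210 and 29 bp from the summits, and Ears2 had another promoter summit at 10.1 (6.26 to 15.4), 533 bp before its start site and 621 bp after one of Ubfd1.

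None of the 6 mitochondrial genes had TGATGNAA anywhere in its promoter peaks, beside 3.85% of all genes with a promoter peak, a share at which a count of 0 in 6 genes is near the background. The commonest match within 50 bp of their summits was the GC box GGGCGG, in Cars2, Ears2 and Mars2 (3 of 6, beside 46.2%). The stretches below are shown because they hold the matches of the rarer motifs searched that more than 1 mitochondrial gene or the highest mitochondrial peak had: Nars2 had 2 matches of TGACG, the core of the cyclic AMP response element, and Mars2 and Rars2 each had CCGGAAG, a site of the ETS factors common at housekeeping promoters, all within 50 bp of the summit and in capitals.
Nars2 (chr7:96951498-96951524, plus strand): acccagcgtgaTGACGgaagagcgagc
Nars2 (chr7:96951520-96951546, plus strand): cgagcacggggTGACGtagctcagttg
Mars2 (chr1:55237143-55237171, plus strand): tggcttccgcgCCGGAAGcggcggtaccg
Rars2 (chr4:34614942-34614970, minus strand): ccgcctccgcgCCGGAAGtcgcctctgct

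Nars2 was the 1 gene of the 22 with TGACG (4.55%), beside 13.8% of all genes with a promoter peak. CCGGAAG was at 3 of the 22 summits (13.6%), beside 4.80%, and the third gene was the cytosolic Cars, which had the composite element as well.

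The 10 mitochondrial genes without a promoter peak were Aars2, Fars2, Hars2, Iars2, Lars2, Pars2, Sars2, Tars2, Vars2 and Wars2. Apart from Wars2, described above, none had a distal peak. Beside 18% of all protein-coding genes, a single gene among these 10 is near the background. The nearest summit was 2724 bp from the start of Iars2 but lay 29 bp from that of Bpnt1, and at Pars2 and Hars2 it was 18157 and 38502 bp away. For the other 6 genes it lay between 55773 bp (Aars2) and 150727 bp (Vars2) from a start site. Hars and Hars2 lie head to head and overlap by 198 bp on chromosome 18, and neither had a peak.

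Set side by side by amino acid, the cytosolic and mitochondrial genes formed 17 pairs, with Eprs and Fars2 each entering more than once. By gene, promoter peaks were present at 70.0% of cytosolic and 37.5% of mitochondrial synthetases, beside 27.9% of all protein-coding genes. A promoter peak was present at the cytosolic gene alone in 9 pairs, at both in 5, at the mitochondrial gene alone in 1 (Rars2) and at neither in 2. Where both had a peak, the cytosolic fold was the higher in 3 pairs (Eprs and Ears2, Mars and Mars2, Yars and Yars2). The mitochondrial fold was the higher in 2: Nars2 at 15.7 against Nars at 7.16, and Cars2 at 10.2 against Cars at 5.22. The counting intervals overlapped in both of these, and also in Mars and Mars2 (10.9 to 23.3 and 4.37 to 11.6). They did not overlap in Eprs and Ears2 or in Yars and Yars2.

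**Figure D3:**
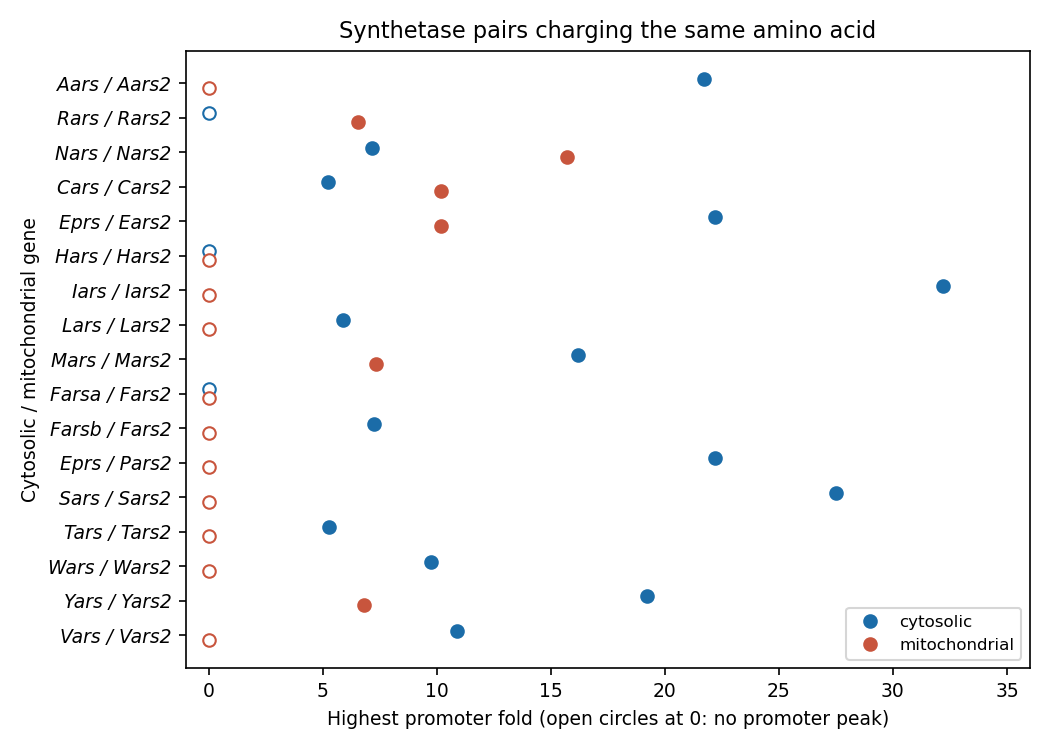
Highest promoter fold (x axis, linear) of the cytosolic (blue) and mitochondrial (red) gene for each amino acid pair (y axis), with open circles at 0 for genes with no promoter peak. In 9 of 17 pairs the cytosolic gene alone has a peak, and 27.9% of all protein-coding genes have one. Gars and other cytosolic genes without a mitochondrial partner among the 39 are not drawn.

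At the summit, the composite element was met in the cytosolic group alone among these genes. It lay within 50 bp of the strongest promoter summit in 10 of the 22 genes (45.5%), all cytosolic, beside 1.80% (110 of 6100) of all genes with a promoter peak. With the strict spelling TGATGCAA the counts were 8 of 22 and 0.869%. Among the 110 genes, Gars ranked 3 by fold, Iars 11, Sars 16, Eprs 20, Aars 22 and Yars 26. The element was not confined to high peaks within the set: Cars, on 6 reads, ranked 106.

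Over the whole list the share of genes with the element was higher where the fold was higher. It was 0.913% of 3175 genes with a fold under 7, 1.67% of 2331 with a fold of 7 to 15 and 7.07% of 594 with a higher fold. In the same ranges the element was at the summit of 1 of 7, 3 of 7 and 6 of 8 of the synthetase and scaffold genes with a promoter peak. Anywhere in the strongest peak, it was present at 13 of 14 cytosolic genes and at 0 of the 8 others, beside 3.85% of all genes with a promoter peak. Wider peaks hold more sequence: the share was 5.27% of the 2731 genes whose peak was 400 bp or wider, and 8.09% of the 1112 of these with a fold of 10 or more. In RefSeq promoters of 300 bases (250 before to 50 after the start), TGATGNAA was present at 4.51% of 27025 genes.

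Other elements were met at 0 to 5 of the 22 summits among those described here. The C/EBP palindrome TTGCGCAA, the cyclic AMP response element TGACGTCA and the AP-1 site TGANTCA were within 50 bp of 0 of the 22 summits, beside 0.180%, 0.902% and 1.03% of all genes with a promoter peak. The GC box GGGCGG, the commonest match at promoter peaks, was at 5 of the 22 (22.7%) beside 46.2%. CCAAT was at 4 (18.2%) beside 7.49%, and the E-box CACGTG at 3 (13.6%) beside 5.84%. All motifs were searched on both strands, and no search excluded overlap with another motif.

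**Figure D4:**
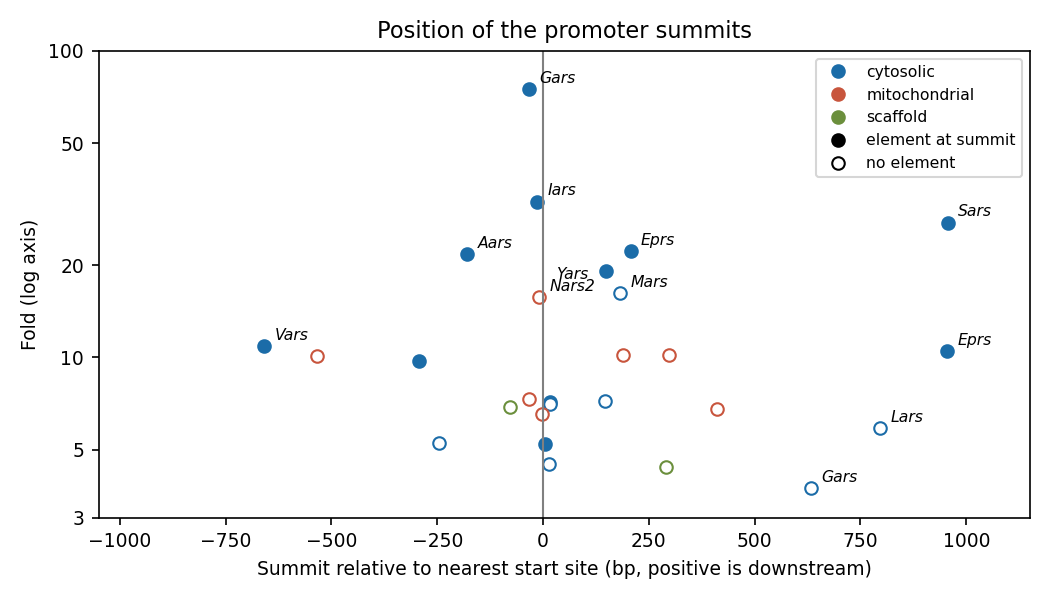
Position of the 27 promoter summits relative to the nearest start site (x axis, bp, positive is downstream) and their fold (y axis, log scale), coloured by group and filled where TGATGNAA lies within 50 bp. The strongest summits of Gars and Iars lie within 34 bp of a start site, whereas Sars and the weaker Eprs summit lie 956 and 954 bp downstream.

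Position and base composition of the promoters are given beside these counts. The strongest summits of the 22 genes lay a median of 181 bp from a start site, beside 111 bp over all genes with a promoter peak. Of the 22, 8 lay within 100 bp, beside 2878 of the 6100 genes with a promoter peak. The median ratio of observed to expected CpG within 500 bp of the start sites was 0.640 in cytosolic, 0.703 in mitochondrial and 0.777 in scaffold genes, and 0.507 over all protein-coding genes. All 3 group medians were above that of all genes. In all genes, those with a promoter peak had a median ratio of 0.735 and those without one 0.373. Within the cytosolic group the corresponding ratios were 0.671 and 0.640, and in the mitochondrial group 0.796 and 0.649. The part of base composition in the counts was not tested.

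Distal peaks were few. They were present at 3 of the 39 genes (7.69%), beside 18% of all protein-coding genes. Besides that of Wars2, there was a summit in an intron of Eprs 8207 bp inside the gene, with a fold of 5.02 (2.49 to 9.35) on 8 reads, of whose surrounding bases 91.1% were repeat-masked. Tars had one 35362 bp downstream of its start site, past the end of the gene, with a fold of 6.0 (2.86 to 11.6) on 7 reads and an AP-1 match. All 3 rested on 8 reads or fewer.

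Other genes of tRNA charging and delivery were taken from a list of 29, which includes tRNA maturation and export, the selenocysteine route and elongation factors. Promoter peaks were present at 14 of the 29 genes, beside 27.9% of all protein-coding genes. Their median fold was 6.14, beside 6.86 over all genes with a promoter peak. A fold of 10 or more was reached by 3 of the 29 (10.3%), beside 6.51% of all protein-coding genes. Xpot, the exporter of tRNA from the nucleus, had the highest at 57.3 (48.4 to 67.2) on 147 reads, which ranked 26 among the 6100 genes. Sepsecs, which completes selenocysteine on its tRNA, followed at 37.4 (29.3 to 47.1). Gatc, a subunit of the mitochondrial glutamine amidotransferase, had 12.7 (7.61 to 20.2), in a peak that also counts for Triap1. Eef1d, an elongation factor subunit, had 6.76 (3.74 to 11.4), in a peak that also counts for Tigd5, whose start site was nearer to the summit. Gtpbp2, which helps to rescue stalled ribosomes, had 6.63 (3.49 to 11.7) and Sephs1, a selenophosphate synthetase homologue, 6.58 (3.93 to 10.4). None of the 14 genes had TGATGNAA within 50 bp of its strongest promoter summit, beside 1.80% of all genes with a promoter peak, so the count is near the background.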

How the data were processed

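Per the labels' protocols, Bowtie placed the single-end reads on mm10 with up to 2 mismatches, stacked duplicates were dropped, and SAMtools 1.9 and Sambamba 0.7.1 were used to filter the alignments. MACS2 2.1.2 called the peaks with its defaults, per the labels' protocols, from 1 library of 3 pooled mice. Library depth and the Bowtie version are not stated here. The authors deposited for each peak a fold enrichment (a ratio of pileup to background, with 1 added to each), −log10 p and −log10 q. The score and the summit offset are also as deposited, and the score was not used. From fold and −log10 p the whole-number pileup was solved for all 14157 peaks (largest residual 3.13e-05 in −log10 p), and the fold's 95% interval is the exact Poisson interval of that pileup at a fixed background. Reads have no molecular identifiers, so intervals cover counting error only.

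Genes and start sites are GENCODE M21 protein-coding transcripts, and the sequence is GRCm38.p6, whose chromosome lengths hold all peaks. A peak counts for every gene within 1 kb. The names ending in 2 were compared with the others, except that Aimp2 was kept with the scaffold proteins. The members, gene lists and motifs were chosen with earlier results of these data known. All genes with a peak are named, and of the 29 other pathway genes the 6 of highest promoter fold. No test was run, since there is 1 library. Functions were tested on simulated data. Alternatives were other peak thresholds, promoter distances, start-site sets, assignment rules, repeat removal, motif windows and distal reach. Sequence from chromosome 18 is not printed, and 1 gene and 1 sequence are not reported here. Python 3.11.15, numpy 2.4.6, pandas 2.3.3, scipy 1.17.1 and matplotlib 3.10.9 were used.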

Additional observations from a re-analysis of the deposited data

How the results depend on the processing

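Under 57 alternative values of the 7 counts and medians, 55 stayed within 1.5 times the reported count or, for the median fold, within its binomial interval of 6.81 to 19.2. The exceptions were the genes with a distal peak and those with TGATGNAA at the summit. The former fell from 3 to 1 with −log10 q of at least 5. The latter were 5 instead of 10 within 25 bp, beside 0.934% of all genes with a promoter peak. Promoter peaks were counted at 19 to 24 of the 39 genes, at 12 to 14 cytosolic and at 6 to 8 mitochondrial genes. Cars, Tars and Aimp2 were lost with −log10 q of at least 5, Sars with summits within 500 bp or the outermost start site, and Wars and Aimp1 with the nearest start site. Iars2 and Wars2 were gained within 3 kb. The median fold of the 22 genes was 9.98, beside 6.86 over all genes with a promoter peak. The binomial interval, taken over genes, contains both, so a median that fell to 6.86 would still count as unchanged. With summits within 500 bp the median was 7.33, beside 6.79 over all genes with a promoter peak. With the outermost start site only it was also 7.33, beside 6.81. Both settings lose Sars and leave Vars at its weaker peak of 7.04. No paired analysis was possible because there is 1 library and 1 input. Depth limits the low peaks, such as Tars on 6 reads with an interval of 2.40 to 10.5, and absence of a peak is not absence of binding.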

Other observations

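RefSeq promoters (GRCm38.p6) matched 30 of the 39 genes by symbol. TGATGNAA was present in 5 of the 17 matched promoters whose gene had a CHOP promoter peak (Aars, Gars, Iars, Tars and Yars) and in 0 of the 13 whose gene had none. Over 27025 genes the share was 4.51%, so 0 of 13 is near the background. All 5 matched genes with the element were cytosolic, while most of the 13 were mitochondrial, so group and peak are not separated here. In Tars the element lay at the start site, 243 bp from the CHOP summit, and both were inside 1 peak of 519 bp. Farsb, the cytosolic gene outside the response list that had a promoter peak, held 2 elements in that peak, spelled TGATGCAA and TGATGGAA, 110 and 225 bp from the summit.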
